A study of Mus musculus with 39 samples.

Results

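The genes described here are 38 markers of cell cycle and proliferation, out of 23412 genes measured in 22 dura mater and 17 masseter libraries. They were chosen by name from the roles of their proteins, with earlier results of these data known. All 38 were found and all 38 passed the filter on low counts in both tissues. They were sorted by role: 14 belong to the entry into S phase or to DNA replication, and 24 belong to mitosis or are general marks of dividing cells. In masseter at day 28 after collagenase had been injected into the neighbouring temporal muscle, 17 of the 38 rose against saline day 38, 14 of them mitosis genes, where 5.12% of all genes rose. The proliferation antigen gene Mki67 was at 12.7, 36.1 and 18.8 CPM (counts scaled to the size of each library) in the 3 treated libraries against 1.02 to 3.25 CPM in the 4 controls. Against saline day 28, 3 members rose, where 1.17% of all genes did. Without library 2 of the 3 treated libraries 3 rose against saline day 38, where 1.85% of all genes did. In the same 3 libraries marker genes of granulocyte and erythroid precursors of marrow were also higher in sum. Library 2 had the highest sum of the mitosis genes and of both lists. The sum of the B precursor genes overlapped the controls. However, 1 to 2 of those genes were at 0 counts in a treated library, against 5 to 8 in saline day 38 and 3 to 6 in saline day 28. In dura, 5 members were called 2 days after collagenase against each control, 4 of them lower, where 24.4% and 36.7% of all genes were called.

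A cell that divides first copies its DNA in S phase and then separates the copies in mitosis. Cyclin E and the transcription factor E2F1 open S phase. The Mcm proteins form the ring-shaped helicase that unwinds DNA, while Pcna is the clamp that holds the DNA polymerases. Mitotic cyclins with the kinase CDK1 then start mitosis, a checkpoint holds the chromosomes until all are attached to the spindle, and the anaphase-promoting complex releases them. Transcripts of the mitosis genes are kept low in resting cells by a repressor complex named DREAM and are switched on late in the cycle with the help of FOXM1 and a MYB protein. Adult muscle fibres do not divide; the dividing cells of muscle are satellite cells, which repair fibres, and vessel, connective tissue and immune cells. Bone marrow, which fills the skull beside the dura and other bones, is one of the most actively dividing tissues of the adult.

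All mice were wild-type; no source used here gives their strain or age. Dura, the outer membrane around the brain, was taken 2 days after 10 U of collagenase type I, which breaks down collagen, was put into the temporal muscle (12 libraries), after saline there (4 libraries, here called temporal saline), or after saline at a site that the treatment label leaves unnamed (6 libraries with the word naive in their titles, here called unnamed-site saline). Masseter, a jaw-closing muscle, was taken after collagenase had been injected 4 times, at 0.2 to 0.5 U, into the masseter itself, at day 38 (3 libraries) and day 52 (3 libraries), here called injected masseter. It was also taken at day 28 when those doses had gone into the temporal muscle (3 libraries), here called referred masseter. Its controls had saline in the masseter and were taken at day 28 and at day 38 (4 libraries each). No saline library of day 52, and no masseter library after saline in the temporal muscle, was analysed here. Whether each library is a separate animal is not stated in the labels, and p-values then measure only the spread between libraries, which may be technical. In whole tissue fewer dividing cells cannot be told apart from less RNA of these genes per cell.

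Library totals were 12.1 to 32.3 M counts. The lengths in the files split the libraries into 14 called single-end here (both dura saline groups and masseter saline day 28) and 25 called paired-end (all others), so layout cannot be told apart from treatment in dura, nor from referred masseter against saline day 28. The RNA of the inactive X chromosome, Xist, was at 29.5 to 43.9 TPM, a transcript level scaled for length, in referred masseter and saline day 28, while Ddx3y, on the Y chromosome, stood at 17.3 to 53.5 TPM in the other masseter groups. Day and sex-linked genes therefore cannot be told apart from treatment when referred masseter is set against saline day 38. All 4 temporal saline libraries had Ddx3y, while the other dura groups were mixed. The tissue labels held: a list of meningeal genes summed to 1063 to 7477 CPM over the dura libraries, against 10.2 to 54.1 CPM in masseter. Dura collagenase libraries 1, 4, 6, 7 and 8 also held brain, muscle or pituitary transcripts, with summed muscle fibre genes of 59005 CPM in library 4 and summed brain genes of 7476 CPM in library 1.

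Promoter letters are shown because the members called in masseter were mostly mitosis genes, whose promoters are known to share short motifs. RefSeq (GRCm38.p6) gave 33 promoters for 31 of the 38 members, each from 250 bases before to 50 bases after a transcription start; Aurkb, Kif20a, Ccna2, Mcm4, Foxm1, Tpx2 and Ccne2 had no entry. Searched on both strands were the CCAAT box (CCAAT), the CHR element (TTTGAA or TTCGAA) and the E2F site (TTGGCGC or TTCCCGC or TTGCCGC or TTCGCGC). Capitals mark every match below. A match describes letters and not a working site, and different motifs overlapped each other in 3 promoters, of Mcm7, Ccnb1 and Cdca8.

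The first sequences are those of mitosis members that rose in referred masseter. Ccnb2 encodes a B cyclin (chr9:70421505-70421804, reverse strand), and its window held 3 CCAAT boxes and 2 CHR elements. Mki67, the gene of the proliferation antigen Ki-67 (chr7:135716330-135716629, reverse strand), held 3 CCAAT boxes, 2 CHR elements and 1 E2F site. Top2a encodes the topoisomerase that untangles DNA (chr11:99024140-99024439, reverse strand), and its window held 6 CCAAT boxes and 4 CHR elements. Cdk1 (chr10:69352863-69353162, reverse strand) held 3 CCAAT boxes, 2 CHR elements and 2 E2F sites, and Cenpe, a motor protein of the kinetochore (chr3:135212313-135212612, forward strand), held 1 CCAAT box alone.
Ccnb2: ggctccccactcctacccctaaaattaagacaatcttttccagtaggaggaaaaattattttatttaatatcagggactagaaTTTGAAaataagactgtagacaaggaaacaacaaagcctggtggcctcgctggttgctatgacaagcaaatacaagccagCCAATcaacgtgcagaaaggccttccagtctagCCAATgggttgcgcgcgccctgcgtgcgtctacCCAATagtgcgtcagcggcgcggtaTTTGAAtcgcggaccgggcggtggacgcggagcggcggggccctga
Mki67: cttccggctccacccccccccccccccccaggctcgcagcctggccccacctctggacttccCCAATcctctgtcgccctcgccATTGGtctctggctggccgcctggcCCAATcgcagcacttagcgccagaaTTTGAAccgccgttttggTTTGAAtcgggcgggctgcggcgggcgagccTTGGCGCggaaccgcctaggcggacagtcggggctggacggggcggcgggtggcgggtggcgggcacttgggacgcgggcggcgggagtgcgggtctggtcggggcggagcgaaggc
Top2a: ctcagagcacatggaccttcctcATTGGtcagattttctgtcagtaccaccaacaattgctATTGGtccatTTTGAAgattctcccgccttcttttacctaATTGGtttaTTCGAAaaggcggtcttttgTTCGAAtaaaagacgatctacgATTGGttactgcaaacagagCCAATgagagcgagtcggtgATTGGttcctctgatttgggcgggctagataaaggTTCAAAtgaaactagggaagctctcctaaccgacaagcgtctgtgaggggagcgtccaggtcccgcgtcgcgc
Cdk1: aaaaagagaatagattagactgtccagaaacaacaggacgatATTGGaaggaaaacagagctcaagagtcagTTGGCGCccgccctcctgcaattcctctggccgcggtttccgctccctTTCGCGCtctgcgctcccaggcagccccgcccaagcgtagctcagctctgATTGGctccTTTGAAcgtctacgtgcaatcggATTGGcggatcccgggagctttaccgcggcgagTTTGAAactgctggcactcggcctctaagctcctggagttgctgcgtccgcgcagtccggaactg
Cenpe: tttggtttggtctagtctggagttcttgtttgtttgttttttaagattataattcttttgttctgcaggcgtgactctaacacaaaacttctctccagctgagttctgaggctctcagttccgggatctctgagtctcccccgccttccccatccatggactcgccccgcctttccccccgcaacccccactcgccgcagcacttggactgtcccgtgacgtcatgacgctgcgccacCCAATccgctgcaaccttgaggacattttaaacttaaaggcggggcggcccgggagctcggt

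For contrast, 2 helicase genes that edgeR did not call in any masseter comparison are shown with the same marks; DESeq2 called Mcm6 in injected masseter at day 52 and in referred masseter against saline day 38. Mcm5 (chr8:75109259-75109558, forward strand) held 3 CCAAT boxes and 3 E2F matches, and Mcm6 (chr1:128359656-128359955, reverse strand) held 2 CCAAT boxes and 5 E2F matches. Matches of the same motif were counted also where they overlap on the 2 strands. The stretch TTCGCGCCAA in Mcm5 and each stretch TTGGCGCGAA in Mcm6 therefore count as 2 matches. Neither held a CHR element, but members not called by edgeR in referred masseter against saline held it too: the helicase gene Mcm2 held 1, as did Aurka, and Bub1b held 2.
Mcm5: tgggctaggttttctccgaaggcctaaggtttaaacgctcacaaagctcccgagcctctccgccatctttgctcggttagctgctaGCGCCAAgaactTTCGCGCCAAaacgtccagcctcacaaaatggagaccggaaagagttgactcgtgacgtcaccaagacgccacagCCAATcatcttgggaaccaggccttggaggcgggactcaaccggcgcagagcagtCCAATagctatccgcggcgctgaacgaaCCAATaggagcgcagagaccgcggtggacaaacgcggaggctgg
Mcm6: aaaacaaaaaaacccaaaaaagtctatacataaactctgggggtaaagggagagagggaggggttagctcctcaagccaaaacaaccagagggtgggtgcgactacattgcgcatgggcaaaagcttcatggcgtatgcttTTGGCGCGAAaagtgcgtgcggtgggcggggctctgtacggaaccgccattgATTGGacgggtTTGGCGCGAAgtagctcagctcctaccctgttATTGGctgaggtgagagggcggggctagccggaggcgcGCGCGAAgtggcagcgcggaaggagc

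Over the 20 promoters of mitosis members, 90% held a CCAAT box, 80% a CHR element and 15% an E2F site. Over the 13 promoters of S phase members the shares were 76.9%, 15.4% and 61.5%. Among all 32851 promoters in the table, 37.4% held a CCAAT box, 19.2% a CHR element and 9.57% an E2F site. At least 2 CCAAT boxes stood in 60% of the mitosis promoters, 38.5% of the S phase promoters and 11.7% of all promoters. Promoters of Birc5, Nusap1, Tyms and Ccne1 held none of the 3 motifs in this window, so these letters were not shared by every member that rose. The E2f1 window held none either, but it ended at 154569676 on the reverse strand, inside the gene, which runs to 154569892. It therefore held no bases upstream of the gene, and its lack of motifs says nothing of the promoter there. The Aurka window and a window of Mcm7 also lay inside their genes, and all of these windows count in the shares above.

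The resting tissues were compared first, dura saline (both groups, 10 libraries) against masseter saline day 28 (4 libraries), which share a read layout. Dura was taken at day 2 and this masseter at day 28, so day cannot be told apart from tissue. Sex-linked genes can be told apart only in part. Xist was at 29.5 to 37.6 TPM in this masseter group, while temporal saline dura had Ddx3y at 5.28 to 12.8 TPM and unnamed-site saline was mixed. Levels in CPM for this comparison are scaled over these 14 libraries together, while all other CPM values are scaled within their own tissue. Most members were higher in dura. Of the 38, 31 were higher and 2 lower (edgeR quasi-likelihood test, Benjamini-Hochberg adjusted p under 0.05, the test meant below by called, rose and fell where no other is named), where 42.1% of all 16156 genes tested were higher and 39.9% lower. The median log2 difference was 1.77 for the members and 0.06 for all genes. Of the 24 mitosis members 22 were higher, with a median of 2.14, and of the 14 S phase members 9 were higher and 2 lower, with a median of 0.52. For 27 members every dura library was above every masseter library, against 32.4% of all genes, and for 1 every dura library was below, against 30%.

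**Figure D1:**
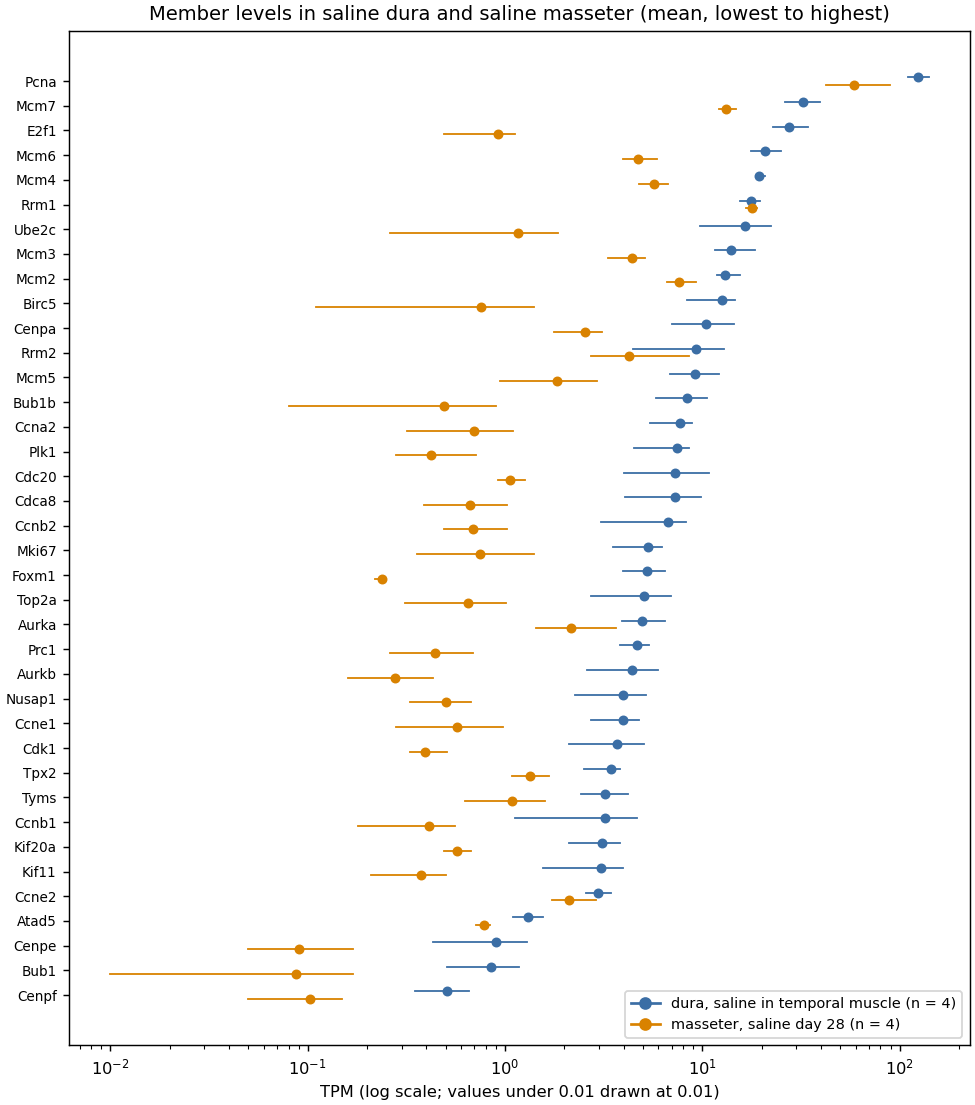
Level of each of the 38 members in TPM, a unit scaled for transcript length (log axis), in temporal saline dura (4 libraries) and masseter saline day 28 (4 libraries), ordered by the dura mean. Points are group means and lines run from the lowest to the highest library; Pcna is at the top, at a mean of 124 TPM in dura and 58.9 TPM in masseter, and Rrm1 is the member whose groups lie closest, at 17.7 and 17.9 TPM.

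Per transcript length, Pcna was the most abundant member in both tissues, at 124 ± 12.8 TPM (SD, n = 4) in temporal saline dura and 58.9 ± 20.8 TPM (n = 4) in masseter saline day 28. In dura it was followed by the helicase subunit Mcm7 (32.3 TPM), E2f1 (27.5 TPM) and Mcm6 (20.7 TPM). In masseter it was followed by Rrm1 (17.9 TPM), the large subunit of the enzyme that makes deoxynucleotides, then Mcm7 (13.2 TPM) and Mcm2 (7.66 TPM). The lowest levels in masseter were those of the large kinetochore proteins Cenpf (0.102 ± 0.0550 TPM) and Cenpe (0.090 ± 0.0548 TPM) and of the checkpoint kinase Bub1 (0.0875 ± 0.0737 TPM), and these 3 did not differ beyond their SD. Pcna, Tyms, Ccnb1 and Ccnb2 each have a named pseudogene among the genes measured, and the deposited counts divide shared reads between such copies, so their levels are uncertain.

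The log2 differences of 2 transcription factors were the largest among the members. E2f1, which drives genes of S phase, was at 23.3, 30.6, 23.2 and 35.1 CPM in temporal saline dura, 14.0 to 17.8 CPM in unnamed-site saline and 2.21, 1.94, 2.37 and 0.985 CPM in masseter saline day 28 (dura against masseter, log2 3.51 ± 0.21, adjusted p = 1.46e-09). Foxm1, the activator of late cell cycle genes, was at 7.12, 11.2, 8.45 and 11.8 CPM and 5.97 to 9.16 CPM in these dura groups and 0.928, 0.667, 0.965 and 0.903 CPM in masseter (log2 3.27 ± 0.20, adjusted p = 2.02e-09). In both, the lowest dura library was above the highest masseter library. Mki67 was at 25.6, 22.9, 14.9 and 26.6 CPM in temporal saline dura, 10.5 to 20.0 CPM in unnamed-site saline and 3.93, 10.1, 7.20 and 2.96 CPM in masseter (log2 1.61 ± 0.30, adjusted p = 0.000209). Top2a (log2 1.93 ± 0.33, adjusted p = 9.91e-05), Cdk1 (2.44 ± 0.26, adjusted p = 6.26e-07) and Ccnb1 (1.89 ± 0.39, adjusted p = 0.000504) were higher as well.

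Among the S phase members the helicase subunit Mcm5 had a log2 difference of 1.38 ± 0.24 (adjusted p = 9.95e-05), Mcm6 1.20 and Pcna 0.33 ± 0.12 (adjusted p = 0.0171). Pcna was not called without masseter saline library 1 or 4, at a log2 difference of 0.25 in both and an adjusted p of up to 0.0768. Rrm1 was lower in dura, at 32.3, 27.5, 25.9 and 32.1 CPM in temporal saline and 24.9 to 26.9 CPM in unnamed-site saline, against 69.9, 47.2, 67.2 and 56.3 CPM in masseter (log2 -1.12 ± 0.09, adjusted p = 4.60e-08), and so was cyclin E2, Ccne2 (log2 -0.73 ± 0.18, adjusted p = 0.00171). With limma on log2(TPM + 1) the median of all genes shifted by 0.80 towards dura, 36 members were called higher and none lower, and Ccne2 turned to 0.19 with Rrm1 at -0.14; both values lie below that shift. Mcm2, Rrm2, Atad5, Aurka and Tpx2 were not called, with log2 differences of -0.30, 0.18, -0.16, 0.01 and 0.28.

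Genes of the same pathways that are not members were counted as well. Of 61 other mitosis genes, 49 were higher in dura and 1 lower, among them Mad2l1, a checkpoint protein (log2 1.57), and the kinesin Kif22 (3.46). Of 30 other replication genes, 18 were higher and 8 lower, with the ligase Lig1 at 2.22 and Dtl, which marks replication proteins for destruction, at -3.45. Of the 9 CDK inhibitors and RB family genes, which hold cells at rest, 4 were lower in dura and 1 higher, with Cdkn1a, the inhibitor p21, at -1.53 and Rbl2, a subunit of DREAM, at -1.0. Of the marrow lists, 12 of 12 granulocyte precursor genes and 10 of 11 erythroid precursor genes were higher in dura, and of 11 B precursor genes 6 were higher and 2 lower. The granulocyte precursor genes summed to 401 to 1328 CPM in temporal saline dura, 119 to 339 CPM in unnamed-site saline and 7.49 to 40.8 CPM in masseter saline day 28, while the B precursor genes overlapped, at 70.1 to 79.6, 41.8 to 57.1 and 46.0 to 137 CPM. The part of marrow cells in the tissue difference was not tested.

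The referred masseter was then compared with both saline groups, to ask whether proliferation genes differ in a muscle that was not itself injected with collagenase. Log2 values were above 0 for 23 of 24 mitosis members against saline day 38 and for 24 against saline day 28, and most of the calls were theirs. Against saline day 38, which has the same layout but another day, 17 of 38 members rose and 0 fell, where 5.12% of the 14652 genes tested rose and 5.79% fell. These were 14 of the 24 mitosis members and 3 of the 14 S phase members. The median log2 fold change was 2.24 for mitosis members, 0.41 for S phase members and 0.01 for all genes. Against saline day 28, which has the same day but another layout, 3 members rose and 0 fell, where 1.17% of all genes rose and 1.77% fell. The medians there were 1.86 for mitosis members, 0.41 for S phase members and -0.03 for all genes. All 3 referred libraries were above all 4 controls for 24 members against saline day 38 (13.5% of all genes) and for 23 against saline day 28 (9.41% of all genes). They were below all 4 controls for 1 and 0 members (14.9% and 8.57% of all genes). The comparisons share the 3 referred libraries and so are not independent of each other.

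**Figure D2:**
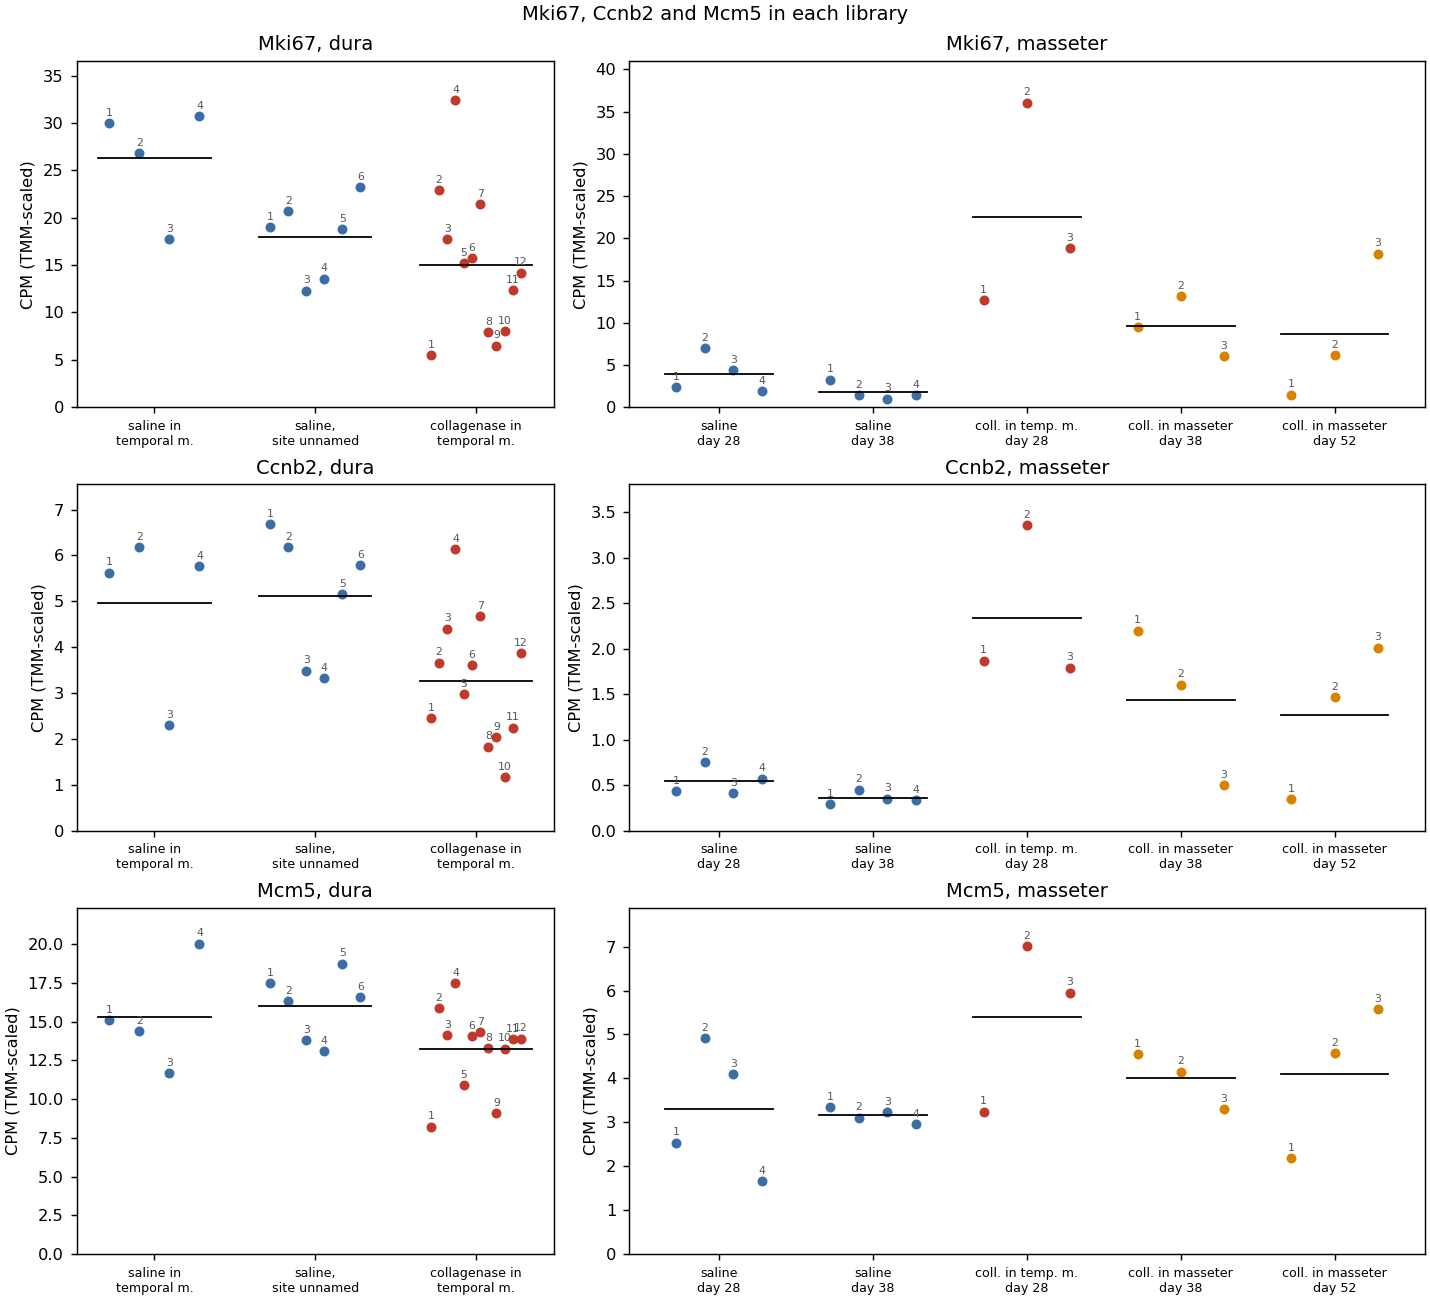
Levels of Mki67, Ccnb2 and Mcm5 (rows) in every library of dura and masseter (columns), in CPM scaled within each tissue, on linear axes that start at 0. Points are libraries, numbered within their group, and bars are group means. The 3 referred masseter libraries lie at 12.7 to 36.1 CPM for Mki67 and 1.79 to 3.36 CPM for Ccnb2, above the 1.02 to 3.25 and 0.291 to 0.451 CPM of saline day 38, while for Mcm5 library 1 lies within that group's range.

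Of the general marks of dividing cells, Mki67 (chromosome 7, 135689784 to 135716450, mm10), whose protein coats mitotic chromosomes, was at 12.7, 36.1 and 18.8 CPM in referred masseter, 3.25, 1.45, 1.02 and 1.45 CPM in saline day 38 and 2.40, 7.02, 4.41 and 1.87 CPM in saline day 28. Every referred library was above all 8 controls, and library 2 stood highest. Its log2 fold change was 3.66 ± 0.70 (adjusted p = 0.00560) against saline day 38 and 2.52 ± 0.67 (adjusted p = 0.0561) against saline day 28. Top2a was at 5.26, 13.7 and 7.52 CPM, against 2.23, 1.10, 0.772 and 1.04 CPM in saline day 38 and 1.05, 2.60, 2.68 and 0.829 CPM in saline day 28, again with no overlap. It rose against saline day 38 (log2 2.78 ± 0.71, adjusted p = 0.0231) and was not called against saline day 28 (log2 2.29 ± 0.69, adjusted p = 0.0892). Foxm1 was not called against saline day 38 (log2 1.41 ± 0.46, adjusted p = 0.0626) and rose against saline day 28 (log2 1.94 ± 0.47, adjusted p = 0.0407).

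All 3 mitotic cyclins and CDK1 rose against saline day 38. Cdk1, the kinase that starts mitosis, was at 1.08, 3.55 and 1.84 CPM in referred masseter, 0.777, 0.20, 0.281 and 0.166 CPM in saline day 38 and 0.524, 0.714, 0.545 and 0.570 CPM in saline day 28. It rose by log2 2.59 ± 0.69 (adjusted p = 0.0274) against saline day 38, while its value against saline day 28 was 1.86 ± 0.66 (adjusted p = 0.135). Ccnb1, a B cyclin that partners CDK1, was at 0.933, 2.37 and 1.57 CPM, against 0.243, 0.401, 0.210 and 0.0831 CPM in saline day 38 and 0.481, 0.630, 0.682 and 0.207 CPM in saline day 28, with no overlap. Its log2 fold changes were 2.79 ± 0.75 (adjusted p = 0.0287) and 1.68 ± 0.70 (adjusted p = 0.190). Ccnb2, the other B cyclin, was called against both controls: it was at 1.87, 3.36 and 1.79 CPM against 0.291, 0.451, 0.351 and 0.332 CPM (log2 2.70 ± 0.53, adjusted p = 0.00650) and 0.437, 0.756, 0.409 and 0.570 CPM (log2 2.09 ± 0.52, adjusted p = 0.0442). Cyclin A, Ccna2, rose against saline day 38 (log2 2.43 ± 0.66, adjusted p = 0.0314).

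Among the mitotic kinases, the checkpoint and the passenger complex that corrects spindle attachments, 3 of 7 rose against saline day 38 and edgeR called none against saline day 28, where DESeq2 called Aurkb, Cdca8 and Plk1. The checkpoint kinase Bub1 was at 0.688, 1.88 and 0.940 CPM against 0.194, 0.10, 0.140 and 0.0415 CPM (log2 3.24 ± 0.99, adjusted p = 0.0494). Birc5, the passenger subunit survivin, was at 1.52, 3.70 and 2.42 against 0.534, 0.0501, 0.456 and 0.166 CPM (log2 3.04 ± 0.89, adjusted p = 0.0413). Plk1, a kinase active through mitosis, rose by log2 2.05 ± 0.57 (adjusted p = 0.0328). For all 3 genes the referred libraries were above every control, but Bub1 and Birc5 were not called in any of the 7 fits that left out 1 library, with adjusted p of 0.0735 to 0.187 and 0.0570 to 0.147. Aurkb, the kinase of the passenger complex, and its subunit Cdca8 had log2 values of 1.44 and 1.37, and the checkpoint protein Bub1b 1.10, none called. Aurka, the kinase of the spindle poles (chromosome 2, 172356190 to 172370886, mm10), had the opposite order: every referred library, at 3.83, 3.46 and 2.64 CPM, was below every saline day 38 library, at 5.88, 6.01, 5.68 and 6.23 CPM (log2 -0.85 ± 0.33, adjusted p = 0.119). In a fit of these groups alone Aurka was called lower, and against saline day 28 it was at log2 0.61.

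Of the genes that drive anaphase, Ube2c, an enzyme that helps to tag cyclin B for destruction, was at 1.42, 4.49 and 2.55 CPM against 0.680, 0.451, 0.386 and 0.166 CPM and rose by log2 2.74 ± 0.78 (adjusted p = 0.0375). Cdc20, the activator of the anaphase-promoting complex, was not called (log2 0.96 ± 0.38, adjusted p = 0.126). Of 8 centromere and spindle genes, 4 rose against saline day 38. Cenpe, the kinetochore motor, was at 1.28, 5.43 and 2.46 CPM in referred masseter, 1.02, 0.852, 0.456 and 0.415 CPM in saline day 38 and 0.218, 0.294, 0.727 and 0.259 CPM in saline day 28. It was called against both, at log2 2.16 ± 0.65 (adjusted p = 0.0458) and 3.01 ± 0.68 (adjusted p = 0.0294). The other 3 were Kif11, the motor that pushes the spindle poles apart (log2 2.45 ± 0.53, adjusted p = 0.010), Nusap1, which binds spindle microtubules (2.39 ± 0.52, adjusted p = 0.0104), and the kinetochore protein Cenpf (2.31 ± 0.62, adjusted p = 0.0287). Not called by edgeR were Cenpa, the histone of centromeres (log2 1.24), the midzone bundler Prc1 (1.48), the cytokinesis kinesin Kif20a (1.28) and the spindle assembly factor Tpx2 (0.78), of which DESeq2 and a fit of the compared groups alone called Cenpa and Kif20a higher.

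The S phase members called against saline day 38 were Mcm7, Rrm2 and Atad5. Of the 6 helicase subunits edgeR called only Mcm7 against saline day 38 (DESeq2 also Mcm6), at 20.0, 21.4 and 17.6 CPM against 12.6, 14.7, 12.1 and 12.5 CPM (log2 0.60 ± 0.10, adjusted p = 0.00212). Mcm5 was at 3.24, 7.01 and 5.96 CPM, against 3.35, 3.11, 3.23 and 2.95 CPM in saline day 38 and 2.53, 4.92, 4.09 and 1.66 CPM in saline day 28, and the groups overlapped (log2 0.77 ± 0.36, adjusted p = 0.195 and 0.71 ± 0.36, adjusted p = 0.272). The clamp Pcna was at 28.9, 37.5 and 34.0 CPM, against 31.9, 31.9, 28.7 and 29.0 CPM in saline day 38 and 29.5, 53.5, 37.7 and 30.5 CPM in saline day 28 (log2 0.14 ± 0.17, adjusted p = 0.664 and -0.18 ± 0.17, adjusted p = 0.578). Of the genes of DNA synthesis, Rrm2, the subunit of ribonucleotide reductase made in S phase, was at 4.91, 8.64 and 6.09 CPM against 2.43, 2.25, 1.51 and 0.831 CPM and rose by log2 1.90 ± 0.48 (adjusted p = 0.0220). Its partner Rrm1 stood at 0.04, not called. Atad5, which unloads Pcna from DNA, was at 4.67, 4.34 and 3.90 against 3.01, 2.81, 2.84 and 2.87 CPM (log2 0.58 ± 0.15, adjusted p = 0.0269). Thymidylate synthase, Tyms, and the S phase entry genes Ccne1, Ccne2 and E2f1 were not called, at log2 0.40, 1.64, 0.32 and 0.25.

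**Figure D3:**
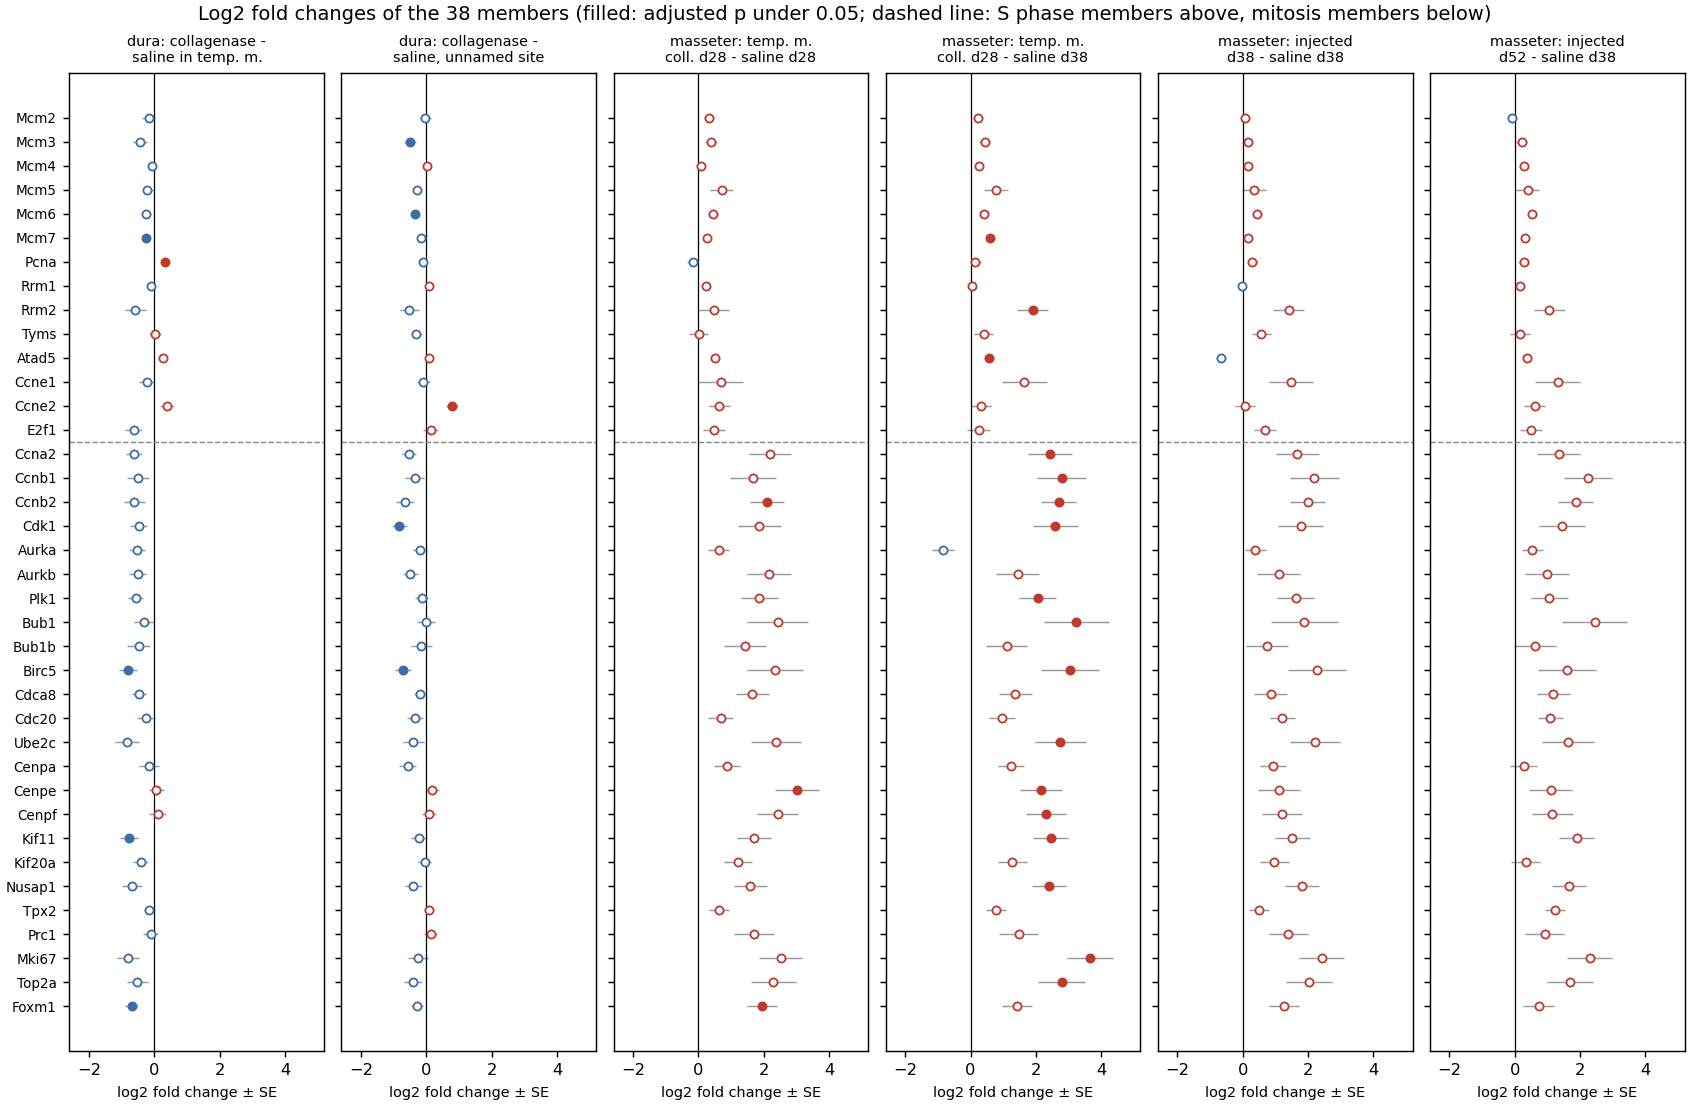
Log2 fold change ± SE (x axis) of each of the 38 members (rows, with the 14 S phase members above the dashed line and the 24 mitosis members below it) in 6 comparisons with saline. Filled points had an adjusted p under 0.05 in edgeR, red above 0 and blue below 0. Filled red points lie mostly below the dashed line in referred masseter against saline day 38, and injected masseter has none.

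Other genes of the same pathways were counted next. Of 59 other mitosis genes, 20 rose against saline day 38 and 0 fell, with a median log2 fold change of 1.49. They included Tacc3, a spindle protein (log2 1.48 ± 0.25, adjusted p = 0.00301), Cks2, a small subunit of the CDK1 kinase (2.14), and the condensin Smc2 (0.85). Of 29 other replication genes, 6 rose, with a median of 0.53, among them the DNA polymerase subunit Pole (1.30) and Uhrf1, which maintains DNA methylation (2.11). Of 12 E2F and DREAM factors, Mybl2, the MYB protein of late cell cycle genes, rose (log2 2.49 ± 0.54, adjusted p = 0.00983) and none fell. Of 9 CDK inhibitors and RB family genes, Cdkn1c, the inhibitor p57, fell (log2 -1.16 ± 0.18, adjusted p = 0.00196) and Rbl2 rose (0.36). No G1 cyclin or kinase of 7 was called. Against saline day 28, 6 of 59 mitosis genes and 1 of 29 replication genes rose, including Smc2 (0.88), the cytokinesis protein Anln (1.31) and Uhrf1 (1.97).

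Marker genes of granulocyte and erythroid precursors of marrow were higher in sum in the same 3 libraries. The 12 granulocyte precursor genes summed to 45.7, 438 and 199.6 CPM in referred masseter libraries 1, 2 and 3, against 2.17 to 5.10 CPM in saline day 38 and 4.59 to 25.8 CPM in saline day 28. All 12 rose against saline day 38, with a median log2 fold change of 7.11, and 7 rose against saline day 28. Mpo, the peroxidase made by dividing granulocyte precursors, was at 5.40, 39.1 and 20.2 CPM in the referred libraries and at no more than 0.588 CPM in any masseter saline library, with Fcnb and Ms4a3 at 0 in all 4 saline day 38 libraries. The 11 erythroid precursor genes summed to 21.1, 77.7 and 50.7 CPM, against 0.706 to 7.15 and 1.14 to 20.7 CPM, and 4 of 11 rose against saline day 38. The 9 osteoblast genes summed to 141, 337 and 362 CPM against 37.1 to 39.7 and 34.5 to 150.2 CPM, with 6 of 9 called. The B precursor genes of marrow overlapped the controls in sum, at 39.4, 53.1 and 53.0 CPM against 28.9 to 42.1 CPM in saline day 38 and 31.8 to 84.2 CPM in saline day 28, and 0 of the 7 tested were called against either by edgeR, with 3 and 1 at an unadjusted p under 0.05. The highest of these saline day 28 sums, 84.2 CPM, stood above a group median of 36.4 CPM. In each referred library 1 to 2 of the B precursor genes were at 0 counts. That number was 5 to 8 in saline day 38 and 3 to 6 in saline day 28. Mature neutrophil genes, which mark cells that no longer divide, were called in 7 of 8 cases. The 24 mitosis members put the 3 libraries in the same order as the granulocyte and erythroid precursor lists, and summed to 54.0, 133 and 75.9 CPM. The part of marrow cells in the rise of the mitosis members was not tested.

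**Figure D4:**
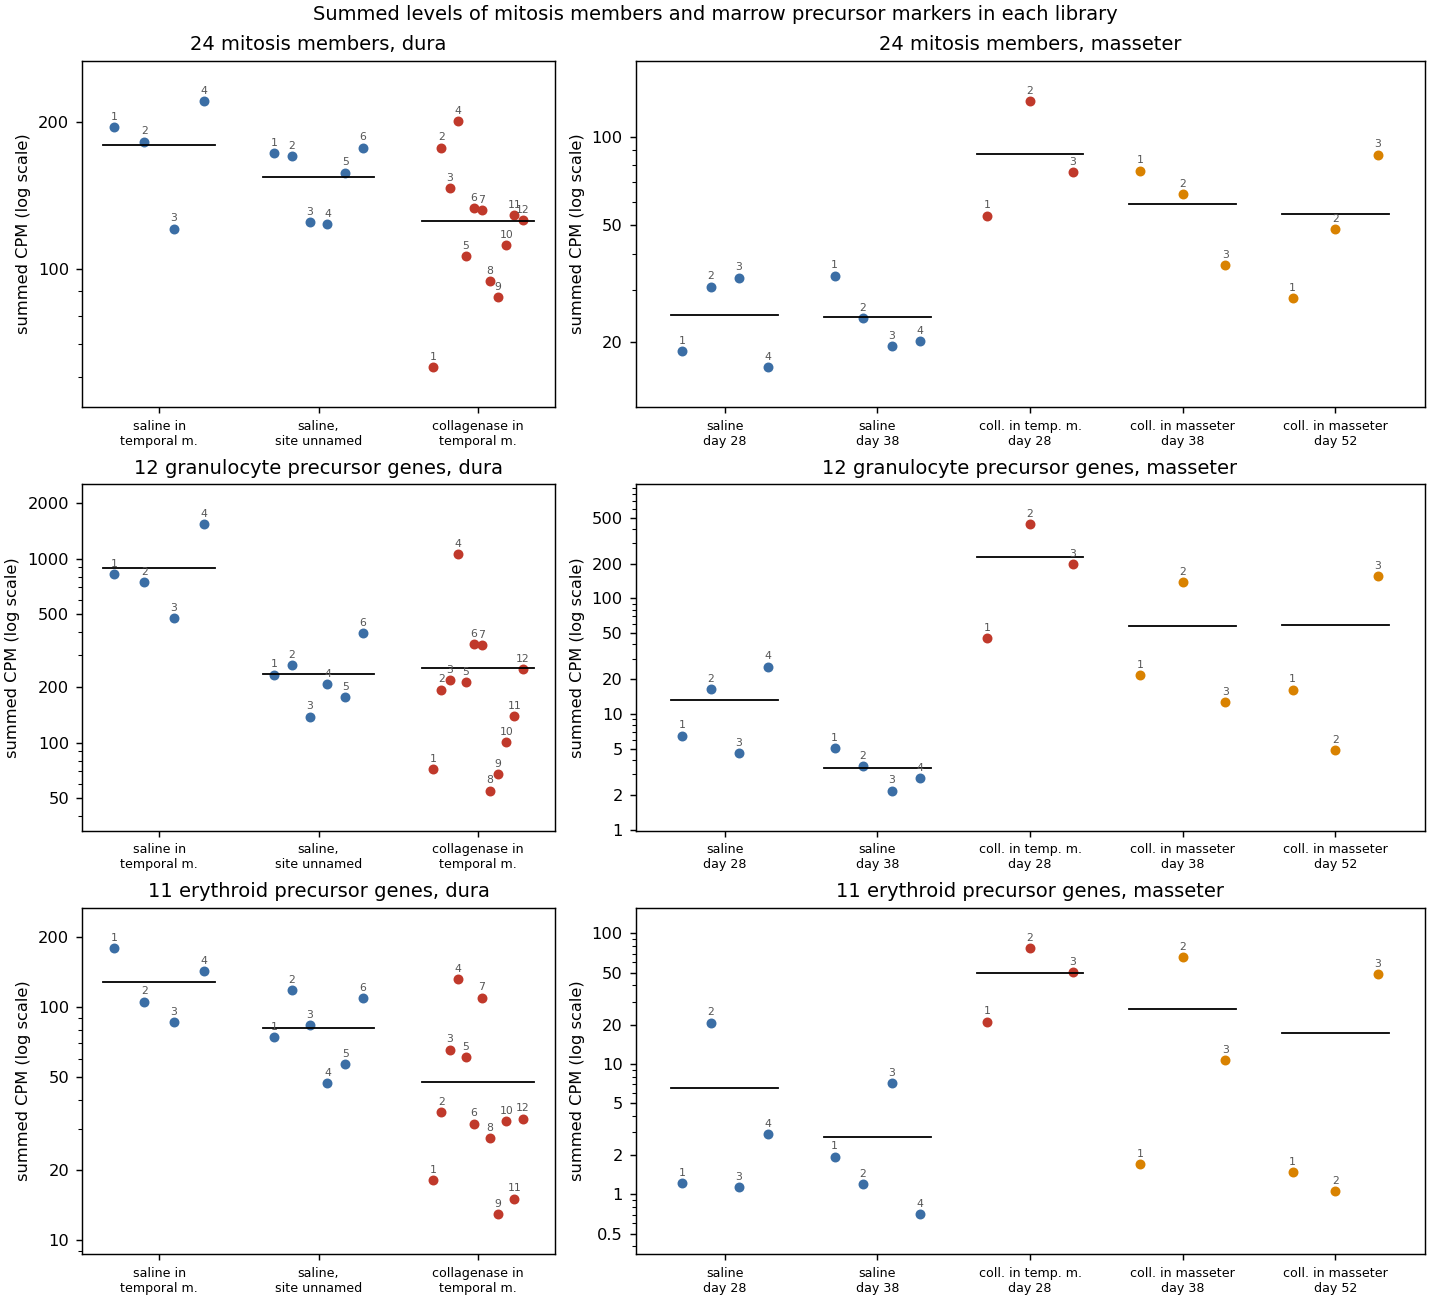
Summed CPM (log axes) of the 24 mitosis members, 12 granulocyte precursor genes and 11 erythroid precursor genes in every library of dura and masseter. Points are libraries, numbered within their group, and lines are group means. In referred masseter library 2 is highest in all 3 panels, while in injected masseter day 38 library 1 is highest for the mitosis members and library 2 for both precursor lists.

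The count of calls depended on single libraries. Referred library 2 was the highest of its group for 34 of the 38 members, where it was highest for 34.45% of all genes. Library 1 was the lowest for 32, where it was lowest for 41.02% of all genes. Without library 2, 3 members were called against saline day 38 (Ccnb2, Mcm7 and Mki67, with Mki67 at log2 3.14, adjusted p = 0.0309) and none against saline day 28. The share of all genes that rose was lower as well, at 1.85% instead of 5.12% against saline day 38. Against saline day 28 it was 0.288% instead of 1.17%. Leaving out saline day 38 library 3 or 4 gave 5 calls (2.52% and 4.36% of all genes rose). Leaving out saline day 38 library 2 or referred library 3 gave 8 (3.71% and 2.93%). Without saline day 38 library 1 there were 12 (3.69%), and without referred library 1 there were 15 (3.13%). Ccnb2, Mcm7 and Mki67 were called in all 7 of these fits. Against saline day 28 no member was called without referred library 2 or 3 or saline library 1 or 4, where 0.288% to 0.74% of all genes rose. There 2 were called without referred library 1 or saline library 2 (0.769% and 1.04%), and 3 without saline library 3 (1.74%). Top2a without library 2 was at log2 2.31 (adjusted p = 0.107). With limma on log2(TPM + 1) the count against saline day 38 was 6 and against saline day 28 it was 0, where 2.24% and 0.444% of all genes rose. DESeq2 called 21 and 13, all higher, where 6.92% and 3.09% of all genes rose.

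Injected masseter was set against saline of day 38 to ask whether dividing cells mark the muscle that received the collagenase. Log2 values of all 24 mitosis members were above 0 at both days, and no member passed the test. At day 38, 0 of 38 members were called by edgeR, where 0.867% of all genes were. At an unadjusted p under 0.05 there were 20 members, a count that cannot be set against that share, which is for adjusted p. DESeq2 called 3 higher (Ccnb2, Mki67 and Nusap1) and 1 lower (Atad5), where it called 1.85% of all genes higher and 2.78% lower. Without saline day 38 library 2, edgeR called Atad5 lower as well, where 501 of all genes fell, against 78 with all libraries. The median log2 value was 1.46 for mitosis members, 0.23 for S phase members and 0.01 for all genes. All 3 injected libraries were above all 4 controls for 16 members (8.67% of all genes), and below them for 1 (9.28% of all genes). At day 52, 0 members were called by edgeR (0.758% of all genes), and 14 had an unadjusted p under 0.05, again not comparable with that share. DESeq2 called 5, all higher (Ccnb2, Kif11, Mcm6, Mki67 and Tpx2), where it called 1.83% of all genes higher and 2% lower. All 3 day 52 libraries were above the controls for 5 members (6.5% of all genes) and below them for 0 (8.51%).

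Mki67 was at 9.49, 13.2 and 6.03 CPM in injected masseter day 38 and 1.48, 6.18 and 18.2 CPM at day 52, against 3.25, 1.45, 1.02 and 1.45 CPM in saline day 38. The day 38 libraries were all above the controls (log2 2.42 ± 0.68, adjusted p = 0.0981), and day 52 library 1 was within them (log2 2.29 ± 0.68, adjusted p = 0.127). Top2a was at 7.09, 5.47 and 3.10 CPM at day 38 and 0.436, 2.84 and 8.83 CPM at day 52, against 2.23, 1.10, 0.772 and 1.04 CPM (log2 2.02 ± 0.70, adjusted p = 0.159 and 1.68 ± 0.70, adjusted p = 0.260). Cdk1 was at 2.03, 1.07 and 0.578 CPM at day 38 and 0.174, 0.641 and 1.97 CPM at day 52, against 0.777, 0.20, 0.281 and 0.166 CPM, overlapping at both days (log2 1.78 ± 0.69, adjusted p = 0.197 and 1.45 ± 0.69, adjusted p = 0.330). The spread between the treated libraries was wide for these genes, and the lowest library at day 52 was within or below the range of the controls. Ccnb1 was at 1.91, 0.946 and 0.372 CPM at day 38 and 0.174, 0.686 and 2.35 CPM at day 52 (log2 2.19 ± 0.75, adjusted p = 0.152 and 2.24 ± 0.75, adjusted p = 0.165). Mcm5 was at 4.56, 4.15 and 3.30 CPM at day 38 and 2.18, 4.58 and 5.57 CPM at day 52 (log2 0.34 ± 0.36, adjusted p = 0.662 and 0.39 ± 0.36, adjusted p = 0.655). For Pcna all treated libraries were above all saline day 38 libraries, at 36.4, 37.9 and 37.2 CPM at day 38 and 42.0, 32.3 and 35.9 CPM at day 52, against 31.9, 31.9, 28.7 and 29.0 CPM (log2 0.29 ± 0.17, adjusted p = 0.380 and 0.27 ± 0.17, adjusted p = 0.461).

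The treated libraries with high mitosis members differed in the marker genes they held. At day 38, library 1 had the highest sum of the 24 mitosis members, 76.8 CPM, with granulocyte precursor genes at 21.6 CPM and Elane, Fcnb and Ms4a3 at 0. In that library 3 genes of muscle repair, named after their values were seen, were at their highest of all masseter libraries: Myog, a regulator of muscle precursors, was at 44.3 CPM, the embryonic myosin Myh3 at 137 CPM and the fetal receptor subunit Chrng at 18.1 CPM. Library 2 of that group had mitosis members at 63.8 CPM with granulocyte precursor genes at 138 CPM and erythroid precursor genes at 66.0 CPM. Of the 10 muscle precursor genes that hold these 3, 4 rose at day 38, among them Chrng (log2 6.14) and Myh3 (5.79), and 4 had log2 values below 0. The sum of all 10 had another order: it was 1502, 597 and 539 CPM in injected masseter day 38, 1239 to 1452 CPM in saline day 38, 3462 to 4857 CPM in referred masseter and 4454 to 6028 CPM in saline day 28, with the neonatal myosin Myh8 at 1124 CPM in library 1. Without library 2, Mki67 at day 38 was at log2 2.12 (adjusted p = 0.217) and Top2a at 1.99.

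At day 52, library 3 was the highest for 29 of 38 members and library 1 the lowest for 32. Library 3 had mitosis members at 87.1 CPM and granulocyte precursor genes at 156 CPM, while library 1 had 28.3 and 16.3 CPM. Library 2 had mitosis members at 48.6 CPM, above the 19.4 to 33.7 CPM of saline day 38, with granulocyte precursor genes at 4.90 CPM and Mpo, Fcnb, Ms4a3 and Ngp at 0. Without library 3, Mki67 at day 52 was at log2 1.13 (adjusted p = 0.537), Top2a at 0.41 (adjusted p = 0.888) and Cdk1 at 0.29 (adjusted p = 0.931). T cell genes summed to 1.27 to 1.36 CPM at day 38 and 0.697 to 3.75 CPM at day 52, against 0.125 to 0.680 CPM in saline day 38. Macrophage genes overlapped, at 114 to 302 and 168 to 337 CPM against 81.5 to 209 CPM. The part of marrow, muscle precursor and immune cells in these values was not tested.

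Day 52 and day 38 of injected masseter differed in 1 member, Atad5, higher at day 52, where 0.0751% of all genes were higher and 0.0205% lower (0.0956% in all). Atad5 (chromosome 11, 80089379 to 80135797, mm10) was at 2.07, 1.81 and 1.61 CPM at day 38 and 4.36, 3.66 and 3.34 CPM at day 52, with 3.01, 2.81, 2.84 and 2.87 CPM in saline day 38. Every day 38 library was below every saline library and every day 52 library above them (day 52 against day 38, log2 1.04 ± 0.17, adjusted p = 0.0442). In the fits that left out 1 library each, Atad5 kept its direction and none of the 6 called it, with adjusted p of 0.0508 to 0.157. Every day 52 library was above every day 38 library for 2 members (Atad5 and Tpx2) and below for 1 (Tyms), where the shares of all genes were 14.6% and 12.3%. The core genes were not called between the days: log2 values were -0.13 for Mki67, -0.34 for Top2a, -0.34 for Cdk1, 0.05 for Ccnb1, 0.05 for Mcm5 and -0.02 for Pcna.

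A comparison of the injection sites was added after the data were seen. Referred masseter (day 28) against injected masseter (day 38) gave 2 members higher and 1 lower, where 6.7% and 5.04% of all genes were, and site cannot be told apart from day and sex-linked genes. Atad5, which unloads Pcna from DNA, was higher in referred masseter (log2 1.23 ± 0.17, adjusted p = 0.000791) and so was Mcm7, at 20.0, 21.4 and 17.6 against 15.7, 13.2 and 14.5 CPM (log2 0.45 ± 0.10, adjusted p = 0.0138). Aurka was lower, at 3.83, 3.46 and 2.64 against 7.84, 9.05 and 6.44 CPM (log2 -1.23 ± 0.35, adjusted p = 0.0342). All 3 genes had no overlap between the libraries, where 19.1% and 18.7% of all genes were wholly higher or lower. Leaving out any 1 of the 6 libraries ended the call of Aurka, and Mcm7 was not called without library 2 of either group. Mki67 (log2 1.24 ± 0.70, adjusted p = 0.287), Top2a (0.76), Cdk1 (0.81), Ccnb1 (0.59), Mcm5 (0.43) and Pcna (-0.15) were not called.

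The saline masseter groups differed from each other in some of the same genes. Saline day 38 was called paired-end and had Ddx3y at 23.3 to 48.8 TPM. Saline day 28 was called single-end and had Xist at 29.5 to 37.6 TPM. Day, layout and sex-linked genes therefore cannot be told apart between these groups. Saline day 38 against day 28 gave 1 member higher and 2 lower, where 24.6% of all genes were called. Aurka was at 5.88, 6.01, 5.68 and 6.23 CPM at day 38 and 1.75, 1.72, 3.77 and 1.40 CPM at day 28 (log2 1.46 ± 0.31, adjusted p = 0.00424). Rrm2 was lower at day 38, at 2.43, 2.25, 1.51 and 0.831 against 3.54, 9.07, 3.23 and 3.06 CPM (log2 -1.43 ± 0.45, adjusted p = 0.0334), and so was Mcm7 (log2 -0.35 ± 0.09, adjusted p = 0.0123). Rrm2 lost its call without saline day 38 library 3 or 4 or saline day 28 library 2. These 3 were also the members whose libraries did not overlap (1 higher, 2 lower), against 11.9% and 11% of all genes. Rrm2 and Mcm7 rose in referred masseter against the lower of these controls, saline day 38, and against saline day 28 they were at log2 0.47 and 0.25, not called. Mki67 (log2 -1.14 ± 0.64, adjusted p = 0.205), Top2a (-0.49), Cdk1 (-0.73), Ccnb1 (-1.11), Mcm5 (-0.07) and Pcna (-0.32) were not called. Of 29 other replication genes, 6 were lower at day 38, and of 59 other mitosis genes 1 was, Cks2 (log2 -1.43).

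In dura, the question was whether proliferation genes differ in the membrane that lies under the injected temporal muscle. Against temporal saline, 4 of 38 members fell 2 days after collagenase and 1 rose, where 11.1% of the 16363 genes tested fell and 13.3% rose. Log2 values were below 0 for 32 of 38 members. The median log2 value was -0.51 for mitosis members, -0.19 for S phase members and 0.06 for all genes. Against unnamed-site saline, 4 fell and 1 rose, where 15.3% and 21.4% of all genes did (36.7% in either direction), and the members' median was -0.22. The shares of members that fell, 4 of 38 in each, were near or under those of all genes. For no member did the 12 collagenase libraries lie wholly above or below either control group, where 5.49% and 4.14% of all genes did against temporal saline and 5.29% and 4.98% against unnamed-site saline.

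Birc5, or survivin (chromosome 11, 117849237 to 117855743), was the member that fell against both controls. It was at a lowest of 1.43, a median of 3.88 and a highest of 7.98 CPM after collagenase, 7.32, 7.82, 4.67 and 7.37 CPM in temporal saline and 5.81 to 7.35 CPM in unnamed-site saline. The groups overlapped, and the log2 fold changes were -0.80 ± 0.27 (adjusted p = 0.0389) and -0.71 ± 0.24 (adjusted p = 0.0273). Against temporal saline Birc5 was not called with an offset for effective length, in the compared groups alone or in 6 of 16 fits that left out 1 library, and against unnamed-site saline it was not called in 2 of 18. Against temporal saline the spindle motor Kif11 (log2 -0.78 ± 0.27, adjusted p = 0.0424), Foxm1 (-0.70 ± 0.20, adjusted p = 0.0158) and Mcm7 (-0.25 ± 0.09, adjusted p = 0.0440) also fell. Foxm1 was at a lowest of 3.04, a median of 7.66 and a highest of 8.99 CPM after collagenase and at 8.36, 13.0, 10.1 and 13.6 CPM in those controls. Against unnamed-site saline Cdk1 (log2 -0.84 ± 0.23, adjusted p = 0.00829), Mcm3 (-0.50 ± 0.18, adjusted p = 0.0302) and Mcm6 (-0.35 ± 0.12, adjusted p = 0.0339) fell.

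The members that rose in dura were S phase genes and differed by control. Pcna was at a lowest of 74.5, a median of 95.2 and a highest of 104 CPM after collagenase, 83.4, 72.2, 66.9 and 75.8 CPM in temporal saline and 89.4 to 109 CPM in unnamed-site saline. It rose against the former (log2 0.31 ± 0.08, adjusted p = 0.00902) and not against the latter (log2 -0.11 ± 0.07, adjusted p = 0.199), and the controls themselves differed (unnamed-site against temporal saline, log2 0.43 ± 0.09, adjusted p = 0.0121). Ccne2 was at a lowest of 3.13, a median of 6.10 and a highest of 8.15 CPM after collagenase and rose against unnamed-site saline, where it was at 2.68 to 3.71 CPM (log2 0.78 ± 0.19, adjusted p = 0.00350). Against temporal saline its value was 0.38 ± 0.21 (adjusted p = 0.181).

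Mki67 was at a lowest of 5.50, a median of 14.7 and a highest of 32.4 CPM in dura after collagenase, 30.0, 26.8, 17.7 and 30.7 CPM in temporal saline and 12.3 to 23.2 CPM in unnamed-site saline (log2 -0.81 ± 0.33, adjusted p = 0.0764 and -0.26 ± 0.30, adjusted p = 0.510). Top2a was at a lowest of 2.68, a median of 9.42 and a highest of 15.2 CPM, against 15.6, 11.7, 7.04 and 17.7 CPM in temporal saline and 9.25 to 14.0 CPM in unnamed-site saline (log2 -0.52 ± 0.32, adjusted p = 0.225 and -0.40 ± 0.28, adjusted p = 0.260). For both genes the collagenase libraries overlapped both control groups and the lowest of them was below every control. Cdk1 against temporal saline was at log2 -0.48 ± 0.26 (adjusted p = 0.180). For Ccnb1 the values were log2 -0.50 ± 0.33 (adjusted p = 0.268) and -0.36 ± 0.29 (adjusted p = 0.332), and for Mcm5 -0.21 ± 0.16 (adjusted p = 0.339) and -0.28 ± 0.14 (adjusted p = 0.125). Between the control groups Pcna was the member called, higher in unnamed-site saline, where 2.24% of all genes were higher and 2.01% lower (4.25% in all); 1 member (Pcna) was wholly higher and 2 (E2f1 and Ccne2) wholly lower in unnamed-site saline, against 9.63% and 10.3% of all genes. Mki67 (-0.55), Top2a (-0.12), Cdk1 (0.36), Ccnb1 (-0.13) and Mcm5 (0.06) had log2 values that were not called there.

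The count in dura depended on which libraries were in the fit. Without collagenase libraries 1, 4, 6, 7 and 8, which held neighbouring tissue, 11 members were called against temporal saline, 10 of them lower (15.7% of all genes were then higher and 16.1% lower). The fallen members then included Mki67 (log2 -0.95, adjusted p = 0.0134), Ccna2, Nusap1, Plk1, Rrm2 and Ube2c. Against unnamed-site saline 11 were called, 9 of them lower, where 18.8% of all genes were lower. Leaving out collagenase library 4 alone gave 13 calls against temporal saline and 9 against unnamed-site saline, 12 and 8 of them lower. In those fits 1998 and 2616 of all genes fell, against 1818 and 2503 with all libraries. Leaving out collagenase library 8, 9 or 11 gave 2 calls against temporal saline, where 12.9% to 13.4% of all genes rose and 1692 to 1782 fell. Leaving out saline library 2 gave 2 calls (8.21% rose and 1300 fell). Without saline library 1 there were 3 (11.3% and 1602), while with all libraries 13.3% of all genes rose. Each of the 5 called members lost its call in at least 1 of the 16 such fits. Against unnamed-site saline, leaving out saline library 1, 2, 5 or 6 gave 3 calls. In those 4 fits 15.9% to 16.4% of all genes rose and 1991 to 2083 fell, against 21.4% and 2503 with all libraries. Ccne2 and Cdk1 were called in all 18 fits. The difference in Pcna between the saline groups was not called without saline library 2 or 3 of the temporal group. Library 4 was the highest collagenase library for 18 of 38 members, where it was highest for 15.91% of all genes. Its granulocyte precursor genes summed to 1059 CPM, above the 54.9 to 345 CPM of the other 11. Without saline library 4, which had the highest granulocyte precursor sum of its group (1538 CPM), 1 call remained, Pcna, where 1557 of all genes rose and 1357 fell. In a fit of these groups alone 2 were called, Foxm1 and Pcna, where 9.59% of all genes rose and 7.27% fell.

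Some marrow markers were also lower in dura after collagenase. The granulocyte precursor genes summed to 54.9 to 1059 CPM after collagenase, 477 to 1538 CPM in temporal saline and 139 to 394 CPM in unnamed-site saline. Of these 12 genes 4 fell against temporal saline and 0 against unnamed-site saline. Of 11 B precursor genes 6 fell and 1 rose against temporal saline (median log2 -1.63), and 5 fell and 1 rose against unnamed-site saline (-1.03). Their sums were 16.5 to 76.3 CPM after collagenase, 83.4 to 93.1 CPM in temporal saline and 48.6 to 66.7 CPM in unnamed-site saline. Erythroid precursor genes fell in 2 and 2 of 11 cases, and mature neutrophil genes in 7 and 1 of 8. The sums of the 24 mitosis members were 62.7 to 200.2 CPM after collagenase, 121 to 221 CPM in temporal saline and 123 to 177 CPM in unnamed-site saline. The part of marrow cells in the falls was not tested.

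Among other genes of the pathways in dura, replication genes fell against unnamed-site saline in 12 of 30 cases and rose in 0, among them Chaf1b, a histone chaperone of replication (log2 -0.95 ± 0.17, adjusted p = 0.000414), and the clamp loader subunits Rfc5 (-0.54) and Rfc3 (-0.45). Against temporal saline 4 fell and 1 rose. Of 61 other mitosis genes, 6 fell and 2 rose against temporal saline, and 5 fell and 4 rose against unnamed-site saline. Cdca3, a trigger of mitotic entry, fell in both (log2 -1.41 ± 0.23, adjusted p = 0.000120 and -1.05 ± 0.20, adjusted p = 0.000665), while the condensins Smc2 (0.81 and 0.68) and Smc4 (0.80 and 0.68) rose in both. The CDK inhibitor p27, Cdkn1b, rose against both controls (log2 0.60 ± 0.08, adjusted p = 1.46e-05 and 0.59 ± 0.07, adjusted p = 2.29e-06), and p21, Cdkn1a, rose against temporal saline (log2 0.81 ± 0.25, adjusted p = 0.0223). Cdk4, the kinase of G1, fell against both (log2 -0.35 ± 0.08, adjusted p = 0.00242 and -0.58 ± 0.07, adjusted p = 2.30e-06). These comparisons share the 12 collagenase libraries, and all of them differ in layout as well as in treatment.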

How the data were processed

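RNA of dura mater and masseter of wild-type mice was sequenced from TruSeq stranded mRNA libraries, per the labels' protocols. The authors deposited 1 gene table per library with expected counts and TPM (both used here), FPKM values (deposited, not used here), and a length and effective length for each gene. RSEM, Trim Galore, bcl2fastq and the build mm10 are named in the submitters' processing notes; their versions, the aligner, the annotation and the strandedness option are not given in these sources. RSEM divides reads shared between copies, which makes genes with pseudogenes uncertain. Read layout was inferred from how far effective length fell below length (median over genes above 50 counts), which was 49.49 to 49.55 bases in 14 libraries and 212.5 to 237 bases in 25, divided at 60. Between replicates the chi-square per gene was 14.9 to 568 over 108 pairs, so no pair agreed within sampling noise.

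Expected counts were rounded to whole numbers and tested in R 4.3.3 by the quasi-likelihood F test of edgeR 4.0.16 (genes kept by filterByExpr, TMM library sizes, Benjamini-Hochberg adjustment over all genes tested, called at an adjusted p under 0.05). All dura libraries shared 1 fit (16363 genes) and all masseter libraries another (14652 genes), so the groups of a tissue share 1 estimate of the spread; saline dura and saline masseter day 28 had a fit of their own (16156 genes). CPM values use TMM-scaled library sizes, and the SE of a log2 fold change is the one implied by the F statistic. Levels of different genes are compared in TPM. Alternatives were DESeq2 1.42.0, limma 3.58.1 on log2(TPM + 1) and log2(TPM + 0.1), no filter, an offset for effective length, the compared groups alone, each library left out in turn, and dura without 5 libraries that held neighbouring tissue. The fitting code was tested on simulated data.

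Of 23412 gene symbols 21563 matched RefSeq. The members and the lists were chosen with earlier results of these data known, and list genes were matched by symbol, 8 of them by an older symbol, with 1 gene (Ahsp) not found. In every comparison Mki67, Top2a, Cdk1, Ccnb1, Mcm5 and Pcna are given, with up to 10 further called members and up to 4 called genes of each list by smallest p. All other values of genes outside the members, such as those of Fcnb, Ms4a3 and Myog, and the further members, were chosen after their values were seen. Replicate numbers in the titles do not tie libraries of different groups to an animal or a day.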

Additional observations from a re-analysis of the deposited data

Results flagged for a closer look

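No library stood apart from its group by Dixon's test of the core members in the groups of 4 to 10 libraries, which are the saline groups alone. The collagenase groups, of 3 or 12 libraries, were not tested, so the test says nothing of any treated library. Differences between collagenase groups that passed a test of the difference itself were found for 3 members, with 1 of 38 called between the days of injected masseter, where 0.0956% of all genes were, and 3 of 38 between referred and injected masseter, under the 11.7% of all genes. Atad5 was higher in injected masseter at day 52 than at day 38 (log2 1.04, adjusted p = 0.0442 in edgeR), with all 3 libraries above all 3, and none of the 6 fits that left out 1 library called it. Atad5 was also higher in referred masseter at day 28 than in injected masseter at day 38 (log2 1.23, adjusted p = 0.000791), again in 3 of 3 libraries. Mcm7 was higher in the same comparison (log2 0.45, adjusted p = 0.0138) and Aurka lower (log2 -1.23, adjusted p = 0.0342), each without overlap between the libraries. That comparison was added after the data were seen, and its site cannot be told apart from day and sex-linked genes. Mcm7 and Aurka also differed between the saline groups of day 38 and day 28, in the same directions as between the collagenase groups when day 28 is set against day 38. Those saline groups differ in layout and sex-linked genes as well as in day, which cannot be told apart.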

How the results depend on the processing

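The 107 results named were each recomputed under the alternatives. Of 1731 values, 1509 kept their direction and their side of the threshold. Another 187 kept the direction but were no longer called, 9 kept it and became called, and 26 changed sign. Among counts of called members, dura collagenase against temporal saline had 5, where 13.3% of all genes rose and 11.1% fell. The count was 11 with limma on log2(TPM + 1) (7.52% rose and 12.1% fell) and 10 on log2(TPM + 0.1) (7.75% and 11.5%). It was 2 in a fit of the compared groups alone (9.59% and 7.27%). Without the 5 libraries that held neighbouring tissue it was 11 (15.7% and 16.1%). With each library left out in turn it was 1 to 13, where 8.21% to 14.4% of all genes rose. Against the unnamed site the count of 5 (21.4% of all genes rose and 15.3% fell) became 11 without those 5 libraries (20% and 18.8%). With 1 library left out it was 3 to 9, where 15.9% to 22.9% of all genes rose. Between the dura controls the count of 1 became 0 with either TPM scale and 0 to 1 with 1 library left out. In the compared groups alone it was 2. There 14.7% of all genes were higher and 14.8% lower, against 2.24% and 2.01% in the main fit. Injected masseter had 0 calls at both days, where DESeq2 gave 4 at day 38 and 5 at day 52. DESeq2 called 1.85% of all genes higher and 2.78% lower at day 38, and 1.83% and 2% at day 52. Leaving out 1 library gave 0 to 1 at day 38, the 1 being Atad5 without saline library 2, and 0 at day 52. Day 52 against day 38 had 1 call and gave 0 with no filter, 0 in the compared groups alone and 0 with any library left out. With no filter and in the compared groups alone, 0 of all genes were called. Referred masseter against saline day 28 had 3 calls and gave 13 with DESeq2 and 0 with both TPM scales. In the compared groups alone it gave 0, where 0.219% of all genes rose. With 1 library left out it gave 0 to 3, where 0.288% to 1.74% rose. Against saline day 38 the count of 17 became 6 with both TPM scales. In the compared groups alone it was 20, where 6.71% of all genes rose and 7.41% fell. With 1 library left out it was 3 to 15, where 1.85% to 4.36% rose. The share of all genes that rose moved as well. It went from 1.17% to 3.09% with DESeq2 against saline day 28, and from 5.12% to 2.24% with limma on log2(TPM + 1) against saline day 38. With 1 library left out, the saline groups of masseter gave 2 to 3, where 8.28% to 11.8% of all genes were higher. Referred against injected masseter gave 1 to 2 (3.02% to 4.91%), and saline dura against saline masseter 32 to 35 (40.4% to 43.4%).

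Signs changed for members that were not called, with 1 library left out in turn. Between the dura controls log2 values ran from -0.044 to 0.22 for Mcm5, -0.41 to 0.10 for Ccnb1 and -0.32 to 0.067 for Top2a. Between the days of injected masseter they ran from -0.23 to 0.34 for Mcm5, -0.12 to 0.066 for Pcna, -1.23 to 0.75 for Ccnb1, -1.49 to 0.23 for Cdk1, -1.29 to 0.35 for Mki67 and -1.62 to 0.16 for Top2a. Pcna in referred masseter against saline day 28 ran from -0.27 to 0.040, and Mcm5 between the masseter saline groups from -0.29 to 0.19. On log2(TPM + 1) and log2(TPM + 0.1), Pcna was at 0.31 on both between the days of injected masseter and at 0.10 on both between referred and injected masseter, and Ccne2 was at 0.19 and 0.27 in saline dura against saline masseter. Those scales moved the median of all genes by 0.26 and 0.32, by 0.19 and 0.23, and by 0.80 and 1.05 in these 3 comparisons; the cause of the shifts was not tested.

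A replicate block was fitted for saline dura in the temporal muscle against saline masseter day 28, whose titles share numbers. That fit also left out the 6 unnamed-site libraries, so its change from 33 called members to 30, 29 of them higher, cannot be assigned to the block alone; the calls of Pcna (log2 0.28), Ccne2 (log2 -0.35) and Cenpa were lost. Libraries with the same number had deviations correlated at -0.14, -0.02, -0.004 and 0.009. The temporal saline dura libraries had Ddx3y at 5.28 to 12.8 TPM and the masseter libraries at 0, so libraries with the same number are not from the same animal. No paired analysis was possible for the other comparisons because the labels tie no library of 1 group to a library of another. Groups of 3 or 4 libraries, low counts of several mitosis genes in masseter and layouts that follow the groups limit what these comparisons can show.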
